A study of Mus musculus with 16 samples.

Results

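The RNA recovered with an antibody against Igf2bp2 was compared with the RNA recovered with control IgG in HL-1 cells that had received a scrambled siRNA, which gives the transcriptome of the Igf2bp2 precipitate before any silencing. HL-1 is a line of mouse atrial cardiomyocytes that keeps dividing in culture. The members are the rows of the authors' deposited table that carry exactly 1 gene symbol, 22406 of 35556 rows, which name 20170 genes. The groups were 4 arrays of the Igf2bp2 precipitate with scrambled siRNA (siScr_Igf2bp2) and 4 arrays of the IgG precipitate with scrambled siRNA (siScr_IgG), each described in the labels as biological replicates. Replicates 1 and 2 of each group were registered in an earlier round than replicates 3 and 4; the labels name no batch, and a difference between these rounds was not tested. The same antibodies were used after an siRNA against the long non-coding RNA Airn, again with 4 arrays of the Igf2bp2 precipitate (siAirn_Igf2bp2) and 4 of the IgG precipitate (siAirn_IgG). All 16 samples were transfected at 10 nM siRNA, grown in norepinephrine-supplemented medium, and come from this 1 cell line. The control for the antibody was IgG; arrays of input RNA were not analysed here.

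Igf2bp2 belongs to a family of RNA-binding proteins with RNA-recognition motifs and KH domains that attach to many mRNAs and act on their stability, localisation and translation. Family members are known as readers of N6-methyladenosine in mRNA and were named for binding the leader of Igf2 mRNA. In RIP-chip, an assay that couples immunoprecipitation of RNA to arrays, the protein is pulled down with what is attached to it, and arrays compare that RNA with the RNA that sticks to beads and unspecific antibody.

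Each value is a log2 difference, Igf2bp2 minus IgG, as the authors' deposited table gives it, with a standard error (SE) recovered from the difference and its p-value. A gene is called higher or lower where the authors' adjusted p is under 0.05, and a gene with several rows is represented by its row with the smallest SE. Row numbers largely run by chromosome. By that order the rows used for some genes stand among genes of other chromosomes. Mrpl23, Hnrnpa3, Parl, Gabarapl2, Eif4e1b and Rpl9 are examples. Whether such a row reads the named gene or a related sequence elsewhere was not tested. The table holds differences and no levels or array values, so the 8 arrays cannot be shown singly. An RNA bound by Igf2bp2 and an RNA that is merely present in these cells cannot be told apart from a difference alone, and no source used here says whether a difference is relative to the other RNAs on the array. Signal over background was not examined. The p-values rest on spread between replicates, but not on that of these 8 arrays alone. The recovered 16.14 degrees of freedom exceed what 4 samples a group in this comparison can give. Both siRNA comparisons also gave the same SE.

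Of 1227 genes in families of energy metabolism, translation, RNA processing, proteostasis and trafficking, 653 were higher in the Igf2bp2 precipitate and 53 lower. These are called housekeeping families below, although some members are of limited use. Of 1574 genes in families of other tissues, 9 were higher and 580 lower. Centred on the olfactory receptors, which are 1025 of these 1574 genes, the other tissues had 101 higher and 15 lower. Of 20170 genes, 42.7% were called in the authors' deposited table: 5149 (25.5%) were higher and 3460 (17.2%) were lower, and 11561 did not pass the test. The differences did not form 1 hump around zero. In bins of 0.1 on the log2 scale, 1275 genes fell in the bin centred on -0.45 and 1238 in the bin centred on 0.65, with 575 in the trough at 0.05. The median gene lay at -0.05 and 48.5% of genes were above zero, so the table's zero sits in the valley between both humps.

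**Figure D1:**
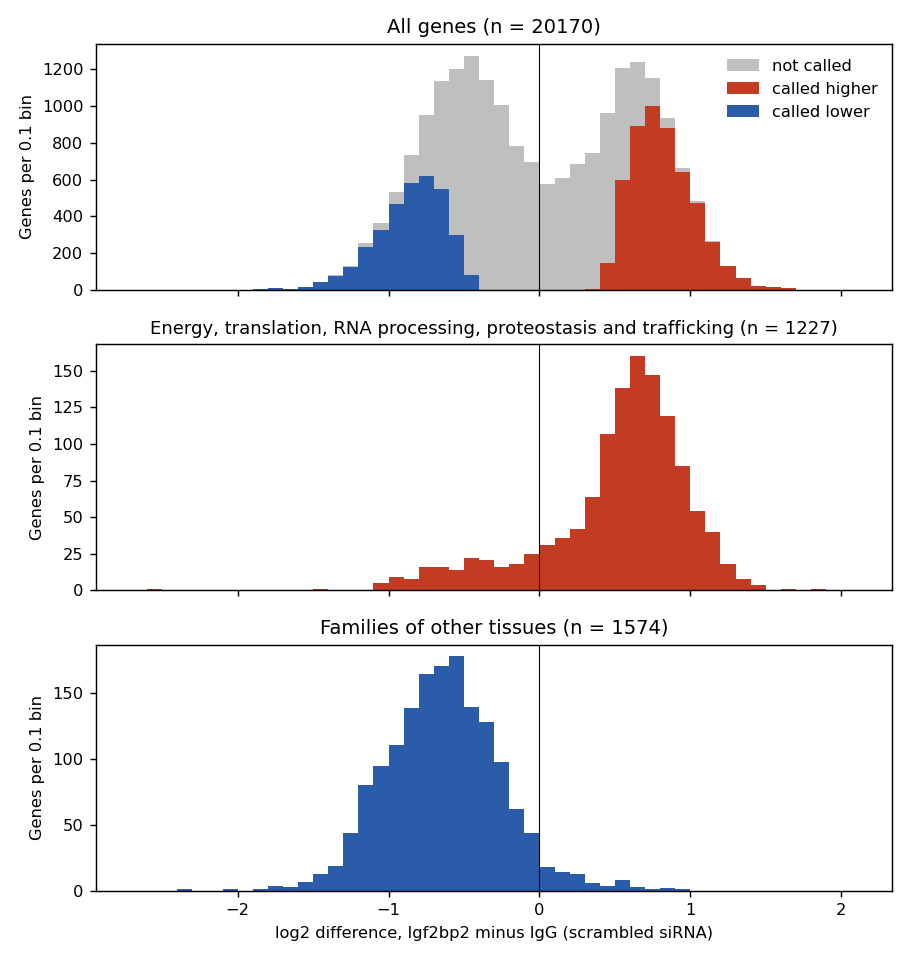
Number of genes per 0.1 bin of the log2 difference, Igf2bp2 minus IgG, with scrambled siRNA, for all 20170 genes (called genes coloured), for 1227 genes of 5 groups of housekeeping families and for 1574 genes of families of other tissues. As deposited, the housekeeping families have their median at 0.61 and the families of other tissues at -0.64, under the right and the left hump. Centred on the olfactory receptors, these medians move up by 0.64. That of the other tissues then lies close to zero, since olfactory receptors are 1025 of these 1574 genes.

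Most differences were modest. Called higher genes had a median of 0.79 and called lower genes a median of -0.83; 985 higher and 857 lower genes differed at least 2-fold, and 15 and 30 at least 3-fold. The recovered SE had a median of 0.233 (quartiles 0.200 and 0.274), so the median gene needed a difference of about 0.61 on the log2 scale, or 1.53-fold, to be called. Among uncalled genes, 9569 lay within 1.5-fold, but the 95% interval of only 1770 genes lay wholly inside 1.5-fold in both directions. Not called does not mean equal in both precipitates.

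Where zero is placed sets the split of calls. In the deposited values 59.8% of calls were higher. Centred on the median of all rows (-0.10), 6460 genes were higher and 2311 lower, which makes 73.7% of calls higher. Centred on the median of the olfactory receptor genes (-0.64), 10468 genes were higher and 67 lower, or 99.4% of calls. The directions below are those of the deposited zero, and the order of genes and families is the same under each centring.

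Families were defined by symbol patterns, 82 in all, covering 5095 genes, and each is read against the 25.5% higher and 17.2% lower over all genes. More members were higher than lower in 52 families, and more were lower in 28. Both centres lie below zero, so each centring raises every difference and could hardly turn a family with mostly higher calls. None of the 52 turned, and a centre above zero was not tried. Of the 28, 25 had more higher than lower calls when centred on the olfactory receptors. Centred on the median of all rows, 1 of the 28 did, the sodium and calcium channels.

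**Figure D2:**
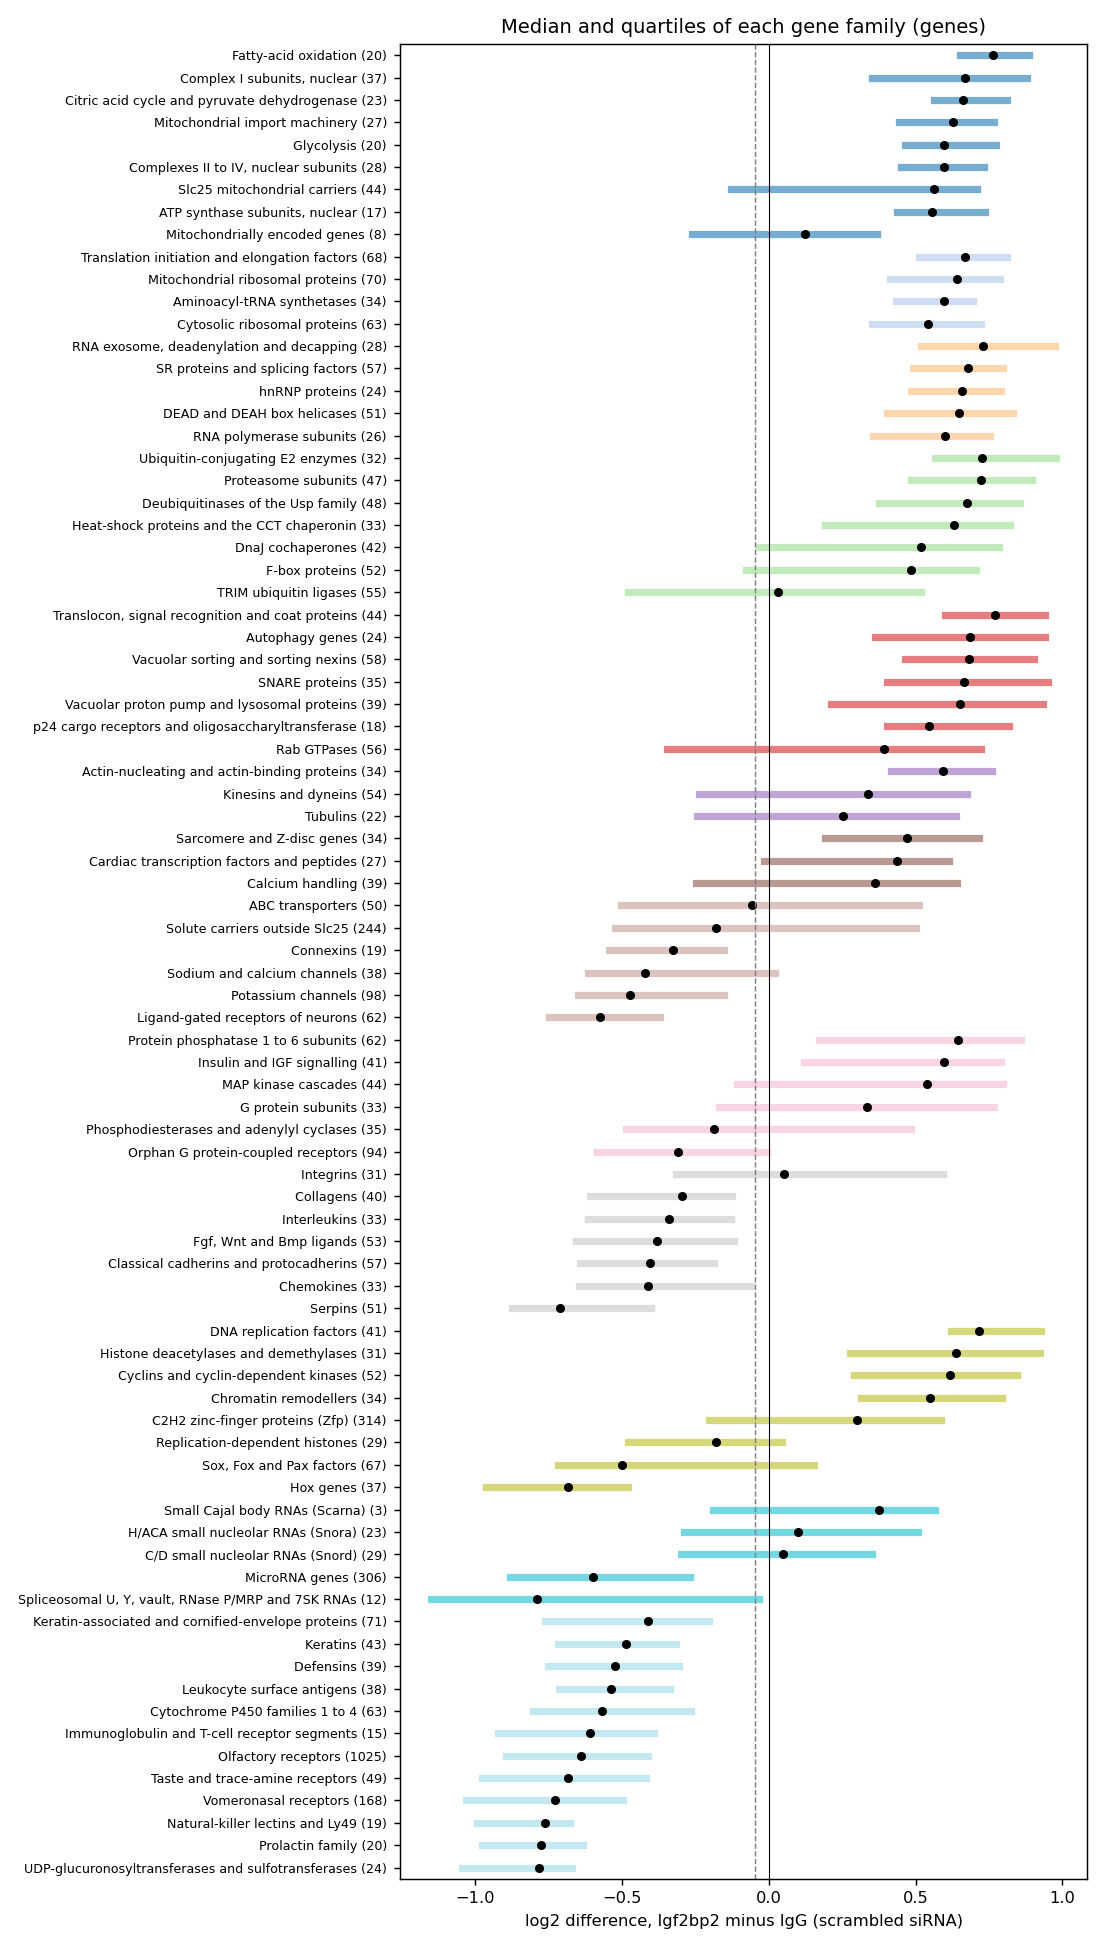
Median (point) and quartiles (bar) of the log2 difference, Igf2bp2 minus IgG with scrambled siRNA, for 82 gene families with the number of genes in brackets; colours mark 13 groups of families and the dashed line is the median of all genes. As deposited, families of metabolism, translation, RNA processing, proteostasis and trafficking lie right of zero, and those of other tissues left of it; centred on the olfactory receptors, at -0.64, most families lie right of zero.

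The genes with the smallest p among those higher in the Igf2bp2 precipitate did not belong to 1 pathway. Pfn2, a profilin that feeds monomers to actin filaments, was higher by 1.52 ± 0.18 (SE, adjusted p = 0.000736 in the authors' deposited table), the smallest p of the higher genes under the naming rule. Arpp19, an inhibitor of protein phosphatase 2A at entry into mitosis, was higher by 1.52, Slc40a1, the iron exporter ferroportin, by 1.44, and Nfyb, a subunit of the CCAAT-binding factor NF-Y, by 1.18. Ddx47, an RNA helicase of ribosome assembly, was higher by 1.63, Park7, a redox-sensitive protein, by 1.501, Vamp7, a vesicle SNARE of late endosomes, by 1.48, and Parl, a protease of the inner mitochondrial membrane, by 1.42. Rnf219 (now Obi1), a ubiquitin ligase of replication origins, Rufy2 and the protocadherin gene Pcdh11x were higher by 1.20, 1.18 and 1.36 in the same table. Fat3, a giant cadherin with 15 rows, was higher by 1.15 in its most precise row, but its least precise row lay at -0.39.

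The lower genes with the smallest p were mostly genes of other tissues and of the embryo. Myct1, a gene of endothelial cells, was lower at -1.21 ± 0.14 (SE, adjusted p = 0.000605 in the authors' deposited table). Sycp1, which builds the synaptonemal complex in meiotic germ cells, lay at -1.16, Chad, a cartilage matrix protein, at -1.44, Krt25, a keratin of the hair root sheath, at -1.29, Try4, a pancreatic trypsin, at -1.32, and Prss37, a protease-like protein of the testis, at -1.37. The transcription factor genes Sp5, Skor2 and Hoxd9 lay at -1.64, -1.11 and -1.10. ND6, the mitochondrial gene encoded on the strand opposite to the other mitochondrial mRNAs, had the lowest value of all genes, -2.59. The remaining names under the rule, Prpmp5 and Ldoc1, lay at -1.37 and -1.04.

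The mRNA of the precipitated protein was itself higher. Igf2bp2 was higher by 0.74 ± 0.20, its paralogue Igf2bp3 was lower at -0.85 and Igf2bp1 lay at 0.33 and was not called. The abundant mRNAs Actb (0.79) and Gapdh (0.65), often used as loading controls, were both called higher in the authors' deposited table.

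Genes of energy metabolism were more often higher than genes as a whole, with 121 of 223 higher and 7 lower at a median of 0.62. Among nuclear subunits of complex I, which takes electrons from NADH, 21 of 37 were higher and 1 lower. Ndufs4, a subunit near the NADH-oxidising arm, was higher by 1.38, and the exception was Ndufa4l2, a hypoxia-induced relative of a cytochrome oxidase subunit, at -1.01. Complexes II to IV had 13 of 28 higher and the ATP synthase 8 of 17, neither with a lower gene.

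Enzymes of fuel breakdown had no lower member. In fatty-acid oxidation 16 of 20 genes were higher, among them Hadhb (1.25) and Echs1 (1.22), enzymes of the oxidation spiral, and all 20 differences were positive at a median of 0.76. In the citric acid cycle and pyruvate dehydrogenase 19 of 23 were higher, with Dld, the shared dehydrogenase subunit, at 1.27 and Idh3a, an isocitrate dehydrogenase subunit, at 1.15, and all 23 were positive. Glycolysis had 13 of 20 higher, led by Aldoc (0.996), an aldolase, and none lower.

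Transport into mitochondria was more mixed. Of 44 carriers of the Slc25 family 17 were higher, led by the folate carrier Slc25a32 (1.19), and 4 were lower, among them Slc25a21 (-1.10), a carrier of oxodicarboxylates. Protein import had 12 of 27 higher, with the channel subunit Timm17b at 1.25, and 1 lower. The lower gene was Tomm40, at -0.52 in its most precise row and of the other sign in another. Of the 8 mitochondrially encoded genes listed, ND3 (0.55) and ND1 (0.54) were higher and ND6 was the only one lower, so these transcripts did not follow their nuclear partners as a group.

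Translation genes gave 136 of 235 higher and 4 lower, at a median of 0.61. Cytosolic ribosomal proteins had 36 of 63 higher, with Rpl23a at 1.29. Mitochondrial ribosomal proteins had 38 of 70 higher and none lower, with Mrpl23 at 1.43 in a row that stands among genes of another chromosome. Initiation and elongation factors had 46 of 68 higher. They include Eef1e1 (1.30), a scaffold of the synthetase complex, Eef1a1 (1.24), which brings aminoacyl-tRNA to the ribosome, and Eif3g (1.15), a subunit of the eIF3 complex. All 34 aminoacyl-tRNA synthetase genes were above zero and 16 were higher, led by the mitochondrial arginyl enzyme Rars2 (1.37).

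The 4 lower genes of these families are forms of limited use. Rpl3l, the ribosomal protein that replaces Rpl3 in muscle, was lower at -0.93, Gspt2, a retrogene of a release factor, at -0.85, and Eif2s3y, the Y-linked form of an eIF2 subunit, at -0.83. The oocyte cap-binding gene Eif4e1b was lower at -0.72 in its most precise row, while another row lay at 0.15.

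RNA-processing genes had the highest median of the 13 groups, 0.66, where the authors' deposited table has 105 of 186 higher and 5 lower. All 24 hnRNP genes, which coat nascent RNA, were positive and 16 were higher, led by Hnrnpa3 (1.30) and Hnrnpc (1.26). Of 57 SR proteins and splicing factors 33 were higher, among them Srsf9 (1.21) and the U2 snRNP gene Snrpb2 (1.22), and none was lower. Genes of the exosome, deadenylation and decapping had 14 of 28 higher, with the exosome subunits Exosc2 (1.83) and Exosc9 (1.37) and the deadenylase Cnot7 (1.23), and 1 lower, the decapping gene Dcp1b (-0.88). DEAD and DEAH box helicases had 30 of 51 higher. Their 4 lower members included the testis helicases Ddx43 (-1.07) and Ddx25 (-0.69) and the Y-linked Ddx3y (-0.78).

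Protein turnover followed the same line, with 141 of 309 higher and 23 lower. Proteasome subunits had 29 of 47 higher, Psma6 at 1.21, and 1 lower, the testis subunit Psma8 (-1.01). Ubiquitin-conjugating enzymes had 23 of 32 higher and 1 lower, with Ube2g1 at 1.27. Deubiquitinases of the Usp family had 28 of 48 higher, with Usp8, which acts on endosomal cargo, at 1.19, and 3 lower. The lower ones were Usp51 (-0.78), Usp9y (-0.78) and Usp46, at -0.92 in its most precise row and of the other sign in another. Substrate-selecting ligases were less uniform. F-box proteins had 17 of 52 higher and 6 lower, with Fbxl17 at 1.38, and TRIM ligases had 11 of 55 higher and 7 lower at a median of 0.03, which is close to the shares over all genes. Trim63, the muscle ligase MuRF1, was higher by 0.95. Chaperones of the heat-shock and CCT families had 15 of 33 higher, Cct8 at 1.18, and 2 lower. The lower ones were Hspa12b (-0.95) and Cct6b (-0.75), the testis form of a CCT subunit. DnaJ cochaperones had 18 of 42 higher and 3 lower, spanning Dnajc18 (1.34) to the testis gene Dnajb7 (-1.45).

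In membrane trafficking 150 of 274 genes were higher and 14 lower. Translocon, signal recognition and coat proteins had the highest family median of all, 0.77, with 31 of 44 higher and none lower; Srpr, the receptor for the signal recognition particle, lay at 1.28. Vacuolar sorting proteins and sorting nexins had 39 of 58 higher, among them the retromer subunit Vps26a (1.48), and 1 lower. The lower gene was Snx14, at -0.67 in its most precise row and of the other sign in another. SNAREs had 20 of 35 higher and 2 lower, with Vamp3 at 1.37. Autophagy genes had 13 of 24 higher and 1 lower, with the conjugating enzyme Atg3 at 1.28. Gabarapl2 lay at 1.47 in its most precise row and at -0.77 in another. The lower gene was Wipi2, at -0.78 in its most precise row and of the other sign in another.

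The lower members of the trafficking families included genes of regulated secretion. Snap25, the synaptic SNARE, was lower at -0.70, Rab3c, a Rab of synaptic vesicles, at -0.96 and Rab27b, a Rab of secretory granules, at -1.05, while Rab2a, which acts between the endoplasmic reticulum and the Golgi, was higher by 1.26. Rab GTPases as a family had 19 of 56 higher and 7 lower. Atp6v0d2, the proton-pump subunit of osteoclasts, was lower at -0.997, and Atp6v1c1, a widely used subunit, was higher by 1.17.

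Cytoskeletal genes had 47 of 110 higher and 9 lower. Actin-nucleating and actin-binding genes had 20 of 34 higher and none lower, led by Arpc5 (1.73), a subunit of the Arp2/3 complex that branches filaments, and Pfn2. Tubulin-pattern genes, which include the nucleating Tubgcp genes, had 8 of 22 higher and 3 lower, and Tubb4, a brain beta-tubulin, lay at -1.06. Kinesins and dyneins had 19 of 54 higher and 6 lower. The dynein light chain Dynlt3 was higher by 1.30 and the motor genes Kif21a (-1.03) and Kif5a (-0.63), a neuronal kinesin, were lower.

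Among genes of the nucleus, those of DNA replication and the cell cycle were largely higher. All 41 DNA replication factors were positive and 28 were higher, with the origin-recognition subunit Orc4 at 1.25 and the primase Prim1 at 1.16. Cyclins and cyclin-dependent kinases had 27 of 52 higher and 1 lower, the neuronal activator Cdk5r2 (-0.81). Histone deacetylases and demethylases had 18 of 31 higher, led by the demethylase Kdm5a (1.57) and the deacetylase Sirt1 (1.22), and 1 lower. The lower gene was Kdm2a, at -0.52 in its most precise row and of the other sign in another. Chromatin remodellers had 15 of 34 higher and 1 lower, Ino80b (-0.52). Replication-dependent histone genes, whose mRNAs end in a stem-loop and have no poly(A) tail, had 3 of 29 higher and 6 lower. The zinc-finger genes named Zfp had 75 of 314 higher, close to the share over all genes, and 17 lower.

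Transcription factors of body patterning went the other way. No Hox gene was higher and 20 of 37 were lower, at a median of -0.68, and Sox, Fox and Pax genes had 9 of 67 higher and 20 lower, with Foxn3 and Foxp1 both at 0.71 and Pax3 at 0.91 among the higher ones. Centred on the olfactory receptors, the Hox genes had 6 higher and 0 lower and the Sox, Fox and Pax genes 20 higher and 0 lower.

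Signalling genes had 98 of 309 higher and 41 lower. Higher members were 32 of 62 protein phosphatase subunits, with Ppp2r3c at 1.40; 22 of 41 genes of insulin and IGF signalling, with the mTORC1 activator Rheb at 1.51; 20 of 44 genes of the MAP kinase cascades, with Map2k1 at 1.13; and 13 of 33 G protein subunits, with Gnai3 at 1.16. Their lower members included Mapk10 (-0.83), the neuronal JNK, and Mos (-0.89), the kinase of oocyte maturation. Orphan G protein-coupled receptors had 6 of 94 higher and 23 lower, and phosphodiesterases and adenylyl cyclases 5 of 35 in each direction. Centred on the olfactory receptors, the orphan receptors had 30 higher and 0 lower.

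Heart genes were higher in a share above that over all genes, 38 of 100, with 7 lower and a median of 0.44. Sarcomere and Z-disc genes had 15 of 34 higher, calcium handling 13 of 39, with the calmodulin gene Calm3 at 1.10, and cardiac transcription factors and peptides 10 of 27, with the orphan nuclear receptor gene Nr2f1 at 0.96. Isl1, a transcription factor of cardiac progenitors, was lower at -1.04, as were Xirp2 (-0.91), a protein of the intercalated disc, and the ryanodine receptor gene Ryr3 (-0.46).

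The cell type label was checked on its markers, as differences only. Of 17 cardiomyocyte markers measured 11 were higher and 0 lower, at a median of 0.63 and a range of -0.255 to 1.64. Fibroblast markers had 1 of 7 higher and 1 lower, endothelial 0 of 6 higher and 2 lower, leukocyte 1 of 6 higher and 2 lower, and neuronal markers 0 of 3 higher and 2 lower. Of 4 smooth muscle markers 3 were higher and 1 was lower, at a median of 0.90, above that of the cardiomyocyte markers. Levels, and so the absence of a cell type, could not be read, and the part of other cell types in these results was not tested.

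Heart genes were also set beside paralogues that other tissues use. Many of these heart members, among them Actc1, Tnnc1, Tnnt2, Ryr2 and Gja1, are also cardiomyocyte markers above. Their values are thus the same ones and no separate support. Of 16 heart members measured 11 were higher and none lower, with a median of 0.64 and a range of 0.45 to 1.64. Of 31 members of other tissues 3 were higher and 9 lower, with a median of -0.34 and a range of -1.49 to 0.87. In 13 of 14 sets the lowest heart member lay above the highest other member. The 13 count sets whose members lay close, such as calsequestrin with Casq2 at 0.51 and Casq1 at 0.45. The sets were chosen and do not list every relative. The actin set leaves out Actb, which was higher by 0.79, near Actc1 at 0.84. The difference between paralogues was not tested gene by gene. Probes of near-identical paralogues can share signal, and how far they do here was not tested.

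**Figure D3:**
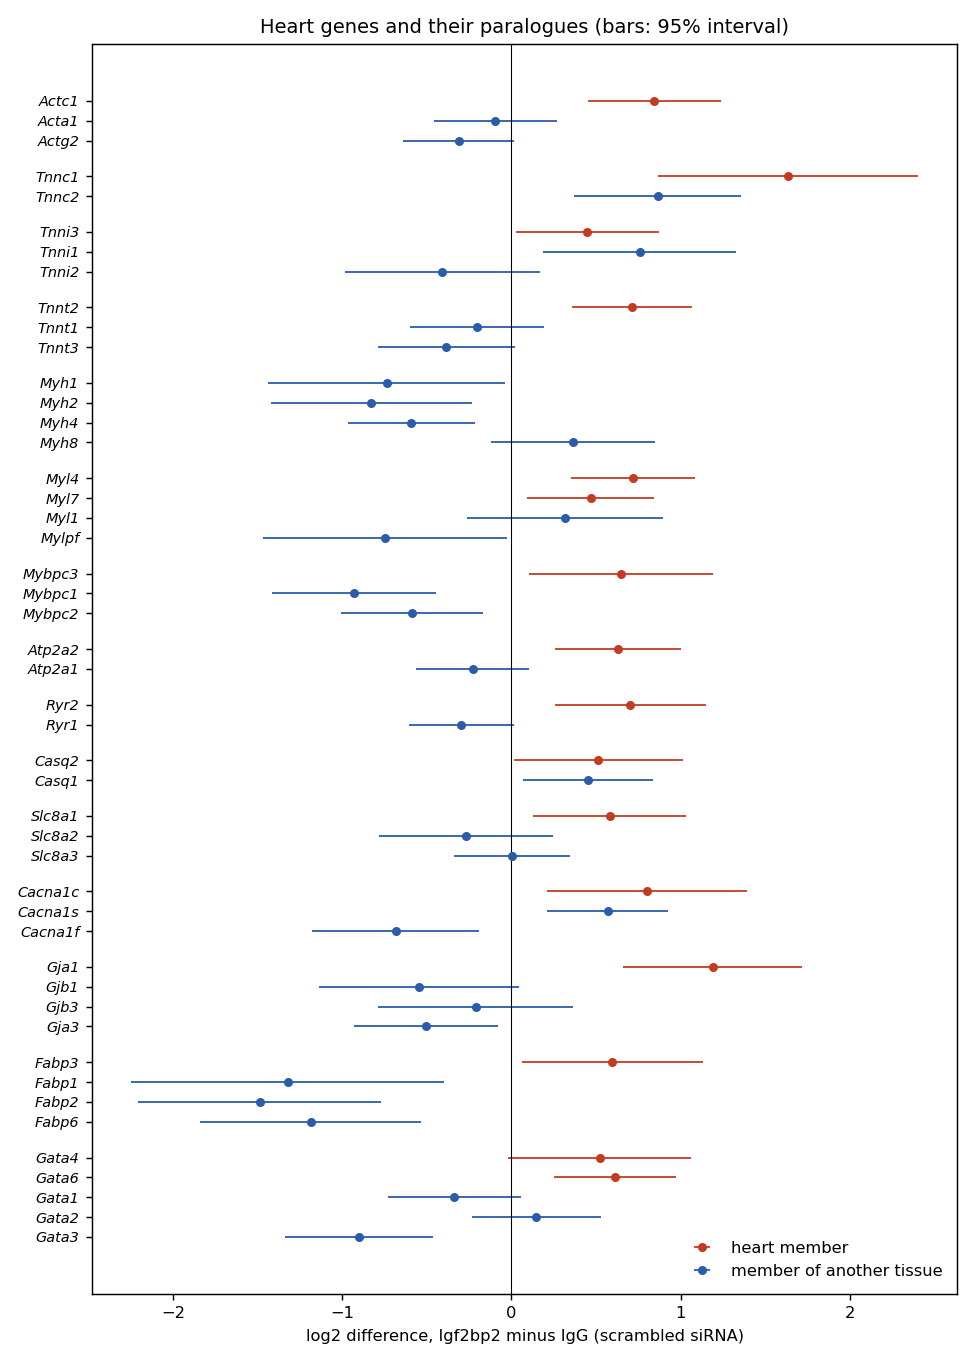
Log2 difference, Igf2bp2 minus IgG with scrambled siRNA, with its 95% interval from the recovered SE, for heart genes and for paralogues of other tissues, grouped by set. The heart members lie between 0.45 and 1.64, the others between -1.49 and 0.87, and troponin I is the set where a heart member (Tnni3) lies below another (Tnni1); centred on the olfactory receptors, all points move up by 0.64.

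The thin filament is the actin and troponin side of the sarcomere. The cardiac actin Actc1 was higher by 0.84 ± 0.19 (SE), whereas the skeletal actin Acta1 lay at -0.10 and the enteric actin Actg2 at -0.31, neither called. Tnnc1, the calcium sensor of heart and slow muscle, was higher by 1.64 ± 0.36, with an interval of 0.87 to 2.404, and its fast-muscle paralogue Tnnc2 was higher too, by 0.87 ± 0.23, so both troponin C genes rose. Tnnt2, the heart troponin T, was higher by 0.71 ± 0.17, against -0.20 for Tnnt1 and -0.39 for Tnnt3, neither called. In troponin I the order was turned: the cardiac Tnni3 lay at 0.45 (interval 0.03 to 0.87, with the authors' adjusted p at 0.0803) and the slow Tnni1, the form of the embryonic heart, was higher by 0.76 ± 0.27.

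The thick filament kept the pattern where a heart member was listed. The atrial light chains Myl4 and Myl7 were higher by 0.72 ± 0.17 and 0.47 ± 0.18, while the fast-muscle Mylpf lay at -0.75 and Myl1 at 0.32, neither called. Cardiac myosin-binding protein Mybpc3 lay at 0.65, uncalled with the authors' adjusted p at 0.0553, and its slow and fast skeletal forms Mybpc1 (-0.93) and Mybpc2 (-0.59) were lower. Of skeletal myosin heavy chains Myh2 (-0.83) and Myh4 (-0.59) were lower, Myh1 lay at -0.74 and the perinatal Myh8 at 0.37.

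Calcium and membrane genes followed. The pump Atp2a2 was higher by 0.63 ± 0.18 and its skeletal form Atp2a1 lay at -0.23. The release channel Ryr2 was higher by 0.70 ± 0.21 and Ryr1 lay at -0.30. The exchanger Slc8a1 was higher by 0.58 ± 0.21, against -0.27 for Slc8a2 and 0.00 for Slc8a3. The calsequestrins did not separate, with Casq2 at 0.51 and Casq1 at 0.45 and neither called. Gja1, the main connexin of working myocardium, was higher by 1.19 ± 0.25, and its paralogue Gja3 lay at -0.51 and was not called. The calcium channel Cacna1c was higher by 0.80 ± 0.28, as was the skeletal Cacna1s by 0.57 ± 0.17, and the retinal Cacna1f was lower at -0.69.

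The widest gap was among fatty-acid-binding proteins. The intestinal Fabp2 was lower at -1.49 ± 0.34, the liver form Fabp1 at -1.32 ± 0.44 and the ileal Fabp6 at -1.19 ± 0.31, whereas the heart form Fabp3 lay at 0.60 (interval 0.06 to 1.13) and was not called. Of the GATA factors Gata6 was higher by 0.61 ± 0.17, Gata4 lay at 0.52 and the lymphoid Gata3 was lower at -0.90 ± 0.21.

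Ion channel and transporter genes had 70 of 511 higher and 113 lower, or 184 higher and 0 lower when centred on the olfactory receptors, and most did not pass the test. Potassium channels had 3 of 98 higher and 25 lower, although 20 were higher and 0 lower when centred on the olfactory receptors. The higher ones included Kcnj5 (0.70), a subunit of the atrial channel opened by acetylcholine, and Kcnq1 (0.47), the slow repolarising channel. Sodium and calcium channels had 5 of 38 higher, among them Cacna2d1 (1.01), an auxiliary subunit of cardiac calcium channels, and 11 lower, with 7 and 6 when centred on the median of all rows. Gja1 was the only 1 of 19 connexins higher, and 5 were lower. Ligand-gated receptors of neurons had 22 of 62 lower and 2 higher, Grinl1a (0.82) and Grina (0.64), neither of which encodes a glutamate-gated channel subunit. Solute carriers outside Slc25 had 51 of 244 higher and 43 lower and ABC transporters 8 of 50 higher and 7 lower, near the shares over all genes.

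Genes of the cell surface and matrix had 19 of 298 higher and 77 lower, or 77 higher and 1 lower when centred on the olfactory receptors. Collagens had 9 of 40 lower and Col8a1 (0.49) was the only one higher. Serpins had 19 of 51 lower and 2 higher, Serpinb6b (1.03) and Serpinh1 (0.62), the collagen chaperone of the endoplasmic reticulum. Among chemokines 10 of 33 were lower and 4 higher, including Cxcl12 (0.98), the ligand of Cxcr4. Cadherins and protocadherins had 17 of 57 lower, and Fgf, Wnt and Bmp ligands 14 of 53. Integrins were the exception of this group, with 6 of 31 higher and 2 lower at a median of 0.05.

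Families that belong to other tissues had few higher genes, where the authors' deposited table has 9 of 1574 higher and 580 lower. Of 1025 olfactory receptor genes 376 were lower and 1 was higher, Olfr1419, at 0.67 in its most precise row and -1.002 in another. The receptors' median of -0.64 had quartiles of -0.89 and -0.41, and Olfr806 was the lowest at -2.32. Vomeronasal receptors had 64 of 168 lower and taste and trace-amine receptors 22 of 49. Liver conjugating enzymes of the Ugt and Sult families had 12 of 24 lower, with every value below zero, and cytochrome P450 families 1 to 4 had 24 of 63 lower and 5 higher, among them Cyp2j6 (0.97), of the subfamily that makes epoxides from arachidonic acid. Keratins had 14 of 43 lower, defensins 15 of 39 and prolactin-like hormones 7 of 20. The same group had 101 higher and 15 lower when centred on the olfactory receptors. These are 1025 of its 1574 genes, so that count sets the group largely against itself and cannot say where zero belongs. The group's lower calls are a statement about the deposited zero.

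A scan that used no chosen family regrouped the same genes and values, so it is not separate support for the families. The letters before the first digit of each symbol defined 98 stems with at least 20 genes, 51 with a positive and 47 with a negative median. The highest medians were those of Ap (0.84, 14 of 23 higher), which gathers adaptor-complex genes such as Ap3s2 (1.28) with other genes of the same letters, Snx (0.76, 19 of 28), Ube (0.73, 27 of 38), Tbc (0.70, 14 of 28) and Cdc (0.70, 20 of 31). The lowest were Clec (-0.79, 18 of 32 lower), the C-type lectins of immune cells, Prl (-0.78, 7 of 20), Vmn (-0.73, 66 of 173) and Serpinb (-0.73, 6 of 24).

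Y-linked genes were set beside their X-linked partners after their values were seen, so the comparison is a description and no check. Of 11 genes on chromosome Y none was higher and 6 were lower, at a median of -0.62. Ddx3y lay at -0.78 and its X-linked partner Ddx3x at 0.67, Eif2s3y at -0.83 and Eif2s3x at 0.66, Usp9y at -0.78 and Usp9x at 0.85, and Uty at -0.78 and Kdm6a at 1.19, with all 8 called. At the deposited zero these X-linked copies had the sign of most housekeeping genes, and the Y-linked copies that of most genes of other tissues. Whether this line carries a Y chromosome was not tested.

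MicroRNA genes had 115 of 306 lower and 7 higher, at a median of -0.60, and 40 higher and 3 lower when centred on the olfactory receptors. Whether a probe reads the mature microRNA or its precursor was not tested. RefSeq sequences (GRCm38.p6) matched 275 of them. The mature sequences below belong to the called genes with the smallest p in each direction, with the seed, bases 2 to 8, in capitals because the seed sets which mRNAs a microRNA pairs with; Mir320 was lower as well, at -1.58.
miR-99a-5p: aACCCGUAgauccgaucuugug
miR-15a-5p: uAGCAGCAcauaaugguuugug
miR-680: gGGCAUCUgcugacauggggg
miR-299a-5p: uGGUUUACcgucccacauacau
miR-322-5p: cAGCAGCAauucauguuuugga
Mir680-1 was higher by 1.15 ± 0.30, Mir99a by 1.12 ± 0.18 and Mir15a by 1.06 ± 0.23, while Mir299 was lower at -1.82 ± 0.30 and Mir322 at -1.07 ± 0.21 (SE, authors' deposited table). Mir15a and Mir322 share the seed AGCAGCA and were called in opposite directions.

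MicroRNA genes were then grouped by seed, a step chosen after their values were seen. Of 22 seeds with at least 3 measured genes, AGCAGCA was the only one with calls in both directions. Its other 5 members, Mir16-1 (-0.57), Mir497 (-0.20), Mir16-2 (-0.15), Mir15b (-0.05) and Mir195 (0.01), were not called. Mir15a and Mir16-1 lie on chromosome 14 with their mature 5′ arms starting 139 bases apart, and their values were 1.06 and -0.57. Among the 11 let-7 genes with seed GAGGUAG 5 were lower, from Mirlet7f-2 at -1.497 to Mirlet7c-2 at -0.77, and none was higher. The highest was Mirlet7c-1 at 0.80, not called (adjusted p = 0.0697 in the authors' deposited table), which lies on chromosome 16 with its mature arm starting 732 bases from that of Mir99a. Neighbouring genes thus agreed in sign in the Mir99a cluster and not in the Mir15a cluster. Some genes share their whole mature 5′ sequence. Mirlet7c-1 and Mirlet7c-2 do so with opposite signs (0.80 and -0.77), while Mirlet7f-1 and Mirlet7f-2 share another and were both lower. The values are therefore those of the listed genes and are not assigned to a mature RNA.

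Other non-coding classes divided. By RefSeq type, 117 of 459 long non-coding RNA genes were lower and 25 higher, and 40 of 147 transcribed pseudogenes were lower and 4 higher. Small nucleolar RNAs, which guide modification of ribosomal RNA, were spread around zero, with 2 of 23 H/ACA genes higher and 1 lower and 1 of 29 C/D genes higher, Snord16a at 1.63. Their larger errors raised the difference needed for a call to a median of 1.01 in H/ACA and 1.13 in C/D genes, so fewer calls could be made. The small structural RNAs (spliceosomal U, Y, vault, RNase P/MRP and 7SK) had 5 of 12 lower at a median of -0.79, or 1 higher and 1 lower when centred on the olfactory receptors.

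Promoter sequence was compared because housekeeping genes are known to start in CpG islands, stretches rich in the dinucleotide CG. RefSeq start windows (300 bases, mostly upstream of the start, GRCm38.p6) matched 14578 of 18250 protein-coding genes. Each window was searched for CG, which reads the same on both strands; 94.6% of the 32851 windows in the reference table hold it, with a median of 7. Genes called higher had a median of 22.3 CG, averaged over a gene's windows, genes called lower had 5 and uncalled genes 13. The windows below show the contrast in the genes of smallest p in each direction that have exactly 1 listed window, Pfn2 and Rnf219 (higher) and Myct1 and Sycp1 (lower), with each CG in capitals.
Pfn2, chr3:57847708-57848007, minus strand: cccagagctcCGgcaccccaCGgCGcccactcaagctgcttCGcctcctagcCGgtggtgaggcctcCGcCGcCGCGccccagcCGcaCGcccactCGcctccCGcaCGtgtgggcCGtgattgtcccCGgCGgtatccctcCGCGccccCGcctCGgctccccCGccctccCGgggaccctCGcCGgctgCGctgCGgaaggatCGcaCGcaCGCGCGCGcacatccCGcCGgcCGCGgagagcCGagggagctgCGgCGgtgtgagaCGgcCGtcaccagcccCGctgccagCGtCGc
Rnf219, chr14:104522617-104522916, minus strand: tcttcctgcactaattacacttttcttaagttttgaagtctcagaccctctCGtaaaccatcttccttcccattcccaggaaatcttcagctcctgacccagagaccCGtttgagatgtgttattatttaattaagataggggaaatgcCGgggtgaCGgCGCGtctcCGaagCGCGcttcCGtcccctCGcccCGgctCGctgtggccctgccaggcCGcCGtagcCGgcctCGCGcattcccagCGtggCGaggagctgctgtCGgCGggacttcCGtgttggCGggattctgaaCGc
Myct1, chr10:5593478-5593777, plus strand: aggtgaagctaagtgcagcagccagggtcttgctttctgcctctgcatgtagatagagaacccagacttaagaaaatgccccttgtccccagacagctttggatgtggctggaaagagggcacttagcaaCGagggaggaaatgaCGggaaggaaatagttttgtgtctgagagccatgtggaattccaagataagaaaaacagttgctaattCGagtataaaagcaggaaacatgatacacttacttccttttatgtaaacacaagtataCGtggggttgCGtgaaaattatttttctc
Sycp1, chr3:102936051-102936350, minus strand: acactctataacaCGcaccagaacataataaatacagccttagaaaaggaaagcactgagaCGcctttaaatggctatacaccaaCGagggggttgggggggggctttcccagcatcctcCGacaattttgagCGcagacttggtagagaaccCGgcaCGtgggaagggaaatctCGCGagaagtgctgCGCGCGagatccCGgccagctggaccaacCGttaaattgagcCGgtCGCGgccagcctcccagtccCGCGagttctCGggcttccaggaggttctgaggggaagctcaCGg
Pfn2 has 45 CG and Rnf219 has 25, and Myct1 has 5. Sycp1 has 21, so the lower group also holds genes with CpG-rich starts.

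Over all matched genes the shares moved with the CG count. With 0 to 2 CG, 1.86% of 2203 genes were higher and 35.9% lower, at a median of -0.60. With 6 to 10 CG, 15.5% were higher and 18.6% lower. With 16 to 20 CG, 39.7% were higher and 7.51% lower, and with 31 or more, 47.6% of 2008 genes were higher and 5.83% lower, at a median of 0.57. Without the sensory receptor genes the lowest bin still had 3.07% higher and 34.5% lower. Across genes Pearson's r was 0.50 and Spearman's rho 0.53, given as a description, since genes are not independent replicates. Between 16 and 30 CG the shares changed little, so most of the separation lay between CpG-poor and CpG-rich starts.

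**Figure D4:**
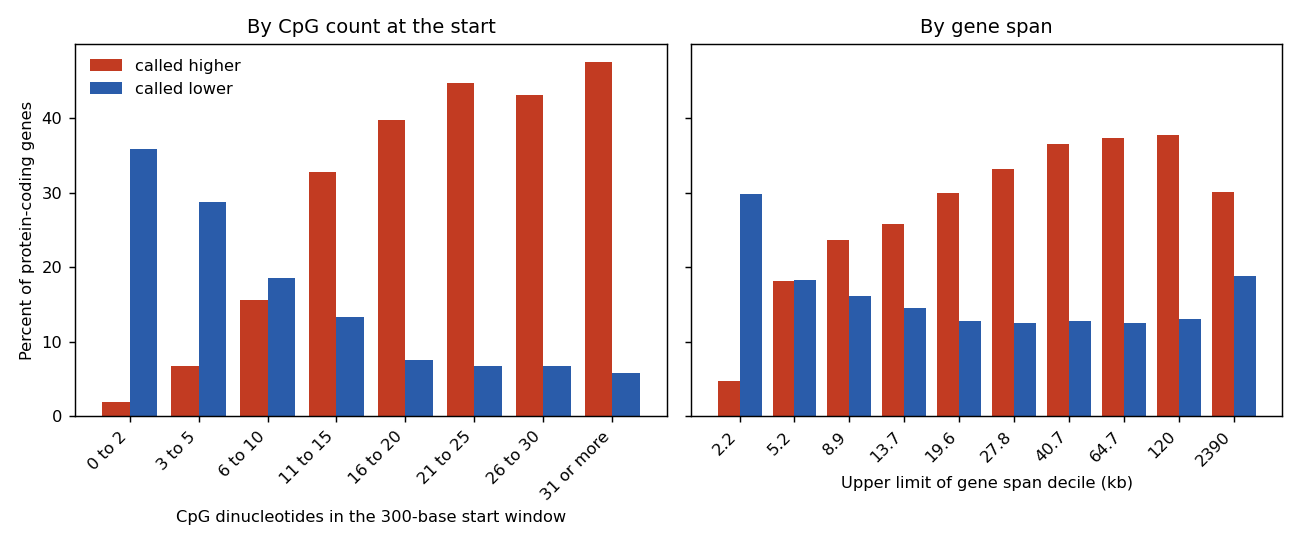
Percent of protein-coding genes called higher and lower in the Igf2bp2 precipitate with scrambled siRNA, by the number of CG dinucleotides in the start window (left) and by deciles of gene span in kilobases (right). As deposited, the share called higher is 1.86% in the CpG-poorest and 47.6% in the CpG-richest bin, and 4.71% in the shortest and 37.7% in the ninth decile of span; centring on the olfactory receptors raises the higher share in all bins.

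Gene span, the length from start to end with introns, also moved with the calls. The span deciles were not repeated without the sensory receptor genes, so how far those genes set the values of the short deciles is unknown. In the shortest decile (0.165 to 2.23 kb), 4.71% of genes were higher and 29.9% lower. In the ninth decile 37.7% were higher and 13.1% lower, and in the longest decile, above 120 kb, 30.1% were higher and 18.8% lower, so the longest genes did not continue the climb. The CpG contrast was present at each length: in the shortest, middle and longest of 3 equal classes of span, the median difference was 0.38, 0.52 and 0.52 with 11 or more CG, against -0.52, -0.41 and -0.39 with fewer. The part of RNA level in these differences was not tested, since the table holds no levels.

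The same antibodies after Airn siRNA gave far fewer calls. With scrambled siRNA 42.7% of genes were called, whereas with Airn siRNA 0.982% were, 164 higher and 34 lower, although 7506 genes had an unadjusted p under 0.05 in the authors' deposited table. The change between siRNAs, tested with the recovered SE over all rows, was called for 0 genes (0%), with 551 genes at an unadjusted p under 0.05. The difference in the number of calls is therefore not a set of genes shown to differ. Medians of the families are given side by side, without a test.

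**Figure D5:**
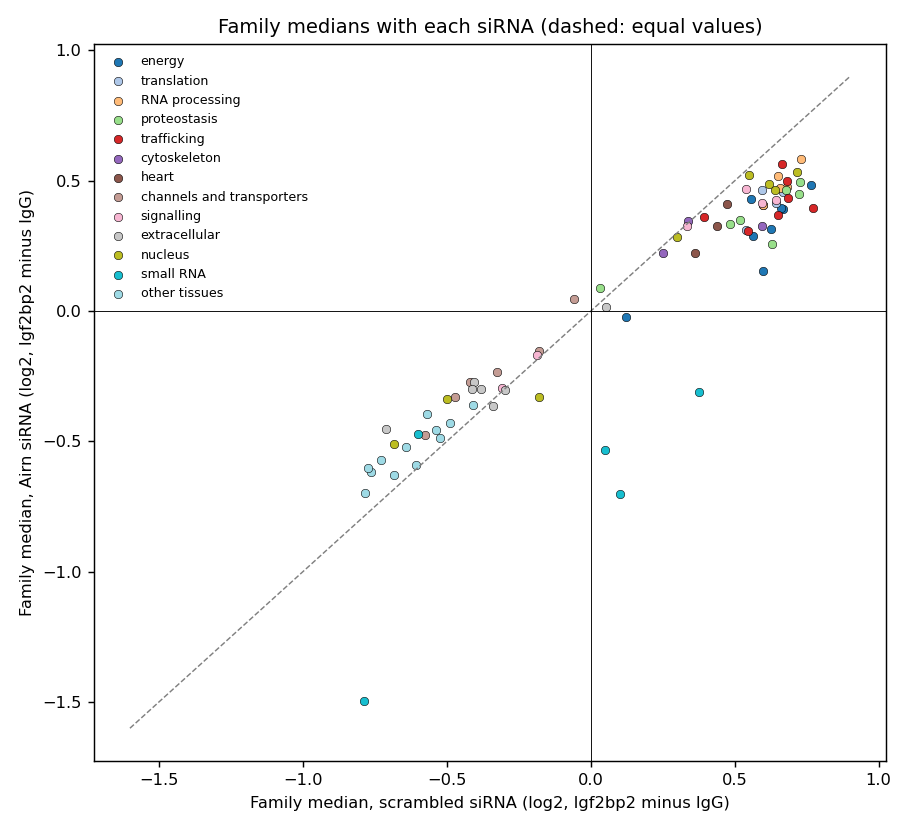
Median log2 difference, Igf2bp2 minus IgG, of each of 82 families with scrambled siRNA (horizontal) and with Airn siRNA (vertical); colours mark 13 groups of families and the dashed line marks equal values. In 71 families the Airn-siRNA median has the same sign and lies nearer zero; the H/ACA genes lie at 0.10 with scrambled and -0.70 with Airn siRNA, as deposited.

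The family median had the same sign with both siRNAs in 77 of 82 families and was nearer zero with Airn siRNA in 71 of these. Complex I subunits had a median of 0.67 with scrambled and 0.39 with Airn siRNA, complexes II to IV had 0.60 and 0.15, and the olfactory receptors had -0.64 and -0.52. The 5 families whose median changed sign were the small nucleolar H/ACA and C/D genes, the Scarna genes, the mitochondrially encoded genes and the ABC transporters. H/ACA genes had a median of 0.10 with scrambled and -0.70 with Airn siRNA, C/D genes 0.05 and -0.53, and the small structural RNAs -0.79 and -1.49. In all 23 H/ACA genes the Airn-siRNA value was the lower one, in 6 of them with an unadjusted p under 0.05, and none was called. Over all 20170 genes the median change was -0.01, and 551 had an unadjusted p under 0.05.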

How the data were processed

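RIP-chip was run on 16 samples of HL-1 cells, 4 in each of 4 groups taken from the labels. The values are log2 differences, p-values and adjusted p-values of the authors' deposited table, 1 row per transcript cluster; per the file headers they compare the Igf2bp2 with the IgG precipitate for each siRNA. Per the labels' protocols, biotinylated cRNA was hybridised to Affymetrix arrays. Software, filters, normalisation and model are details not given in the sources used here, and array values were not analysed here.

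Of the rows, 2824 with several symbols, 10302 with none and 24 with a date in place of a symbol were left out. The SE was recovered from each difference and p-value with 16.14 degrees of freedom, the value at which both comparisons gave the same SE (median disagreement 0.0704% over 29751 rows), and the recovery was tested on simulated data. Retests after centring were adjusted by Benjamini-Hochberg over all 35556 rows. Of the symbols, 17433 are current in RefSeq (GRCm38.p6), 2023 are synonyms and 714 did not match. Genes with several rows number 1304.

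Members, families, paralogues and markers were chosen with earlier results of these data known. Named genes were the 12 called genes with the smallest p in each direction (without predicted, microRNA, small nucleolar, sensory and antigen-receptor genes), up to 3 called members with the largest difference per family and direction, all paralogues, 3 microRNA genes per direction, leaders of the extreme symbol stems, and Igf2bp1 to Igf2bp3, Actb and Gapdh. Genes singled out otherwise were chosen after their values were seen. A few genes are not reported here. Alternatives varied the adjustment, threshold, fold minimum, centring, row per gene and symbols. Python 3.11.15, numpy 2.4.6, scipy 1.17.1 and pandas 2.3.3 were used.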

Additional observations from a re-analysis of the deposited data

How the results depend on the processing

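No paired analysis was possible because the deposited table holds comparisons and no values of single arrays, and for the same reason no replicate could be left out in turn. The number of arrays limits the precision. At an adjusted p under 0.01, 556 genes were higher and 266 lower, against 5149 and 3460. Centred on the olfactory receptor genes, 10468 were higher and 67 lower, and 79 in place of 52 families had more higher than lower calls. Adjustment over rows with 1 symbol (5491 and 3810), a 1.5-fold minimum (4543 and 3151), centring on the median of all rows (6460 and 2311), the row with the largest SE (5105 and 3479), genes with 1 row (4710 and 3322) and current symbols (4612 and 2934) kept both counts within 1.5 times. The median gene moved between -0.02 and -0.08 under the changes of row and symbol. Of 434 named genes, 308 lost their call at 0.01 and 25 lost it and 4 gained one when centred on the median of all rows. Centring on the olfactory receptors ended 151 calls, added 11 and turned the sign of 15 genes, each negative as deposited: Slc25a41 (0.10), Tomm40 (0.12), Stx19 (0.16), Atp6v1c2 (0.16), Kif5a (0.013), Myot (0.15), Cacna2d4 (0.021), Ryr3 (0.18), Igfbp3 (0.069), Kdm2a (0.12), Ino80b (0.13), Acta1 (0.55), Myh4 (0.048), Mybpc2 (0.051) and Atp2a1 (0.41). The row with the largest SE turned 14 genes: Fat3 (-0.39), Tomm40 (0.55), Eif4e1b (0.15), Polr2k (-0.15), Ube2v1 (-0.49), Usp46 (1.13), Snx14 (0.79), Gabarapl2 (-0.77), Wipi2 (0.94), Tbx18 (-0.75), Itgad (0.17), Hist1h2bc (0.49), Kdm2a (0.66) and Olfr1419 (-1.002). The cause of these turns between rows was not tested. Of the genes with several rows, 309 had their most and least precise rows both called, 277 in 1 direction and 32 in opposite directions.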

Other observations

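Symbol stems outside the families above, picked after their values were seen, give further gene groups. Of 29 genes with the stem Med, mostly subunits of the Mediator complex that links enhancer-bound factors to RNA polymerase II, 16 were higher in the Igf2bp2 precipitate and 0 lower (values of the authors' deposited table). Of 20 with the stem Taf, mostly subunits of the general factor TFIID, 13 were higher and 0 lower. The stem Gtf, which gathers general transcription factors, had 11 of 21 higher and 1 lower. The palmitoyltransferases of the stem Zdhhc had 13 of 23 higher and 1 lower, the small GTPases of the stem Arl 13 of 25 and 1, the RING-finger genes Rnf 37 of 77 and 5, and the RNA-binding-motif genes Rbm 18 of 34 and 3.

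On the other side, the kallikreins (Klk), proteases of glands, had 0 of 24 higher and 8 lower, the matrix metalloproteinases (Mmp) 1 of 22 higher and 7 lower, the claudins (Cldn) of epithelial tight junctions 1 of 22 and 6, and the regulators of G protein signalling (Rgs) 3 of 23 and 8. Predicted genes with the stem Gm had 28 of 965 higher and 257 lower. These directions are those of the deposited zero, and centring by stem was not run.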
